A study of Mus musculus with 4 samples.

Results

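Bone and dentin are mineralized on a collagen scaffold that is loaded with acidic phosphorylated glycoproteins, and 10 genes of this system were followed here across jaw and brain tissue of FoxO6-/- and WT mice. They are Dspp, Dmp1, Ibsp, Mepe and Spp1 of the small integrin-binding ligand family, the matrix glycoproteins Sparc and Postn, the transcription factor Sp7 and the mineralization enzymes Alpl and Phex. The rule lists the genes by symbol and uses no measured value, although the list was drawn up with earlier results of these data known. Each gene was read from every probe set that the array annotation gives to that symbol alone. Of the 10 genes, 9 have such a probe set, out of 18193 genes named on the array. Spp1, which encodes osteopontin, was not analysed here. The 9 genes have 15 probe sets, of which 13 reached the median signal of all probe sets, 101, on at least 1 array. This median is used below as the floor, under which a signal was not taken as a reading of the gene. A gene was compared where its mean over the arrays concerned reached the floor, so single signals under it still enter some values.

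DSPP, DMP1, bone sialoprotein (Ibsp) and MEPE carry an integrin-binding motif and many acidic or phosphorylated residues, and their genes lie side by side with Spp1 on mouse chromosome 5. DSPP is cleaved into the 2 main noncollagenous proteins of dentin and is made chiefly by the odontoblasts of the tooth. DMP1 is a product of osteocytes and odontoblasts, bone sialoprotein is an early osteoblast product that can nucleate hydroxyapatite, and MEPE is an osteocyte protein whose acidic peptide restrains mineralization. SPARC (osteonectin) binds collagen and calcium and is also made by many cells outside bone. Periostin (Postn) is a protein of the periosteum and the periodontal ligament. Sp7 (osterix) is required for osteoblast formation, Alpl encodes the alkaline phosphatase that removes the inhibitor pyrophosphate, and Phex encodes an endopeptidase of osteocytes that is mutated in X-linked hypophosphatemia.

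The samples were 4 arrays, 1 for each of FoxO6-/- mandible and maxilla, WT mandible and maxilla, FoxO6-/- brain and WT brain, with mandible and maxilla together called jaw below. The FoxO6-/- allele has LacZ and a neomycin cassette in place of the FoxO6 coding sequence and is therefore a germline null in every cell, and the WT animals carry no such allele. The labels give postnatal day 0 for all 4 arrays, whereas the paper places the jaw tissue shortly before birth. By the methods each jaw array pools the RNA of 4 animals, and heterozygous animals are mentioned among the mutants. No probe set is named for Foxo6, so the genotype of the arrays was not checked. With 1 array per tissue and genotype, a difference between genotypes within a tissue is a ratio of 1 array over 1 array with no replicate check.

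The start regions of the chromosome 5 genes are shown because these genes are neighbours that were all brighter in jaw than in brain. They are RefSeq windows of GRCm38.p6, 300 bases each on the plus strand, from 250 bases before the transcript start to 50 after it, and windows were found for 8 of the 10 genes, without Dspp and Sp7. Capitals mark matches on either strand to 3 short motifs, the RUNX core TGTGGT, which reads ACCACA when it lies on the other strand, the core TAATTG of DLX and MSX sites, which then reads CAATTA, and the TATA box, whose letters TATAAA then read TTTATA. The Dmp1 window is chr5:104202367-104202666, the Ibsp window is chr5:104299037-104299336 and the Mepe window is chr5:104325079-104325378.
Dmp1 promoter window: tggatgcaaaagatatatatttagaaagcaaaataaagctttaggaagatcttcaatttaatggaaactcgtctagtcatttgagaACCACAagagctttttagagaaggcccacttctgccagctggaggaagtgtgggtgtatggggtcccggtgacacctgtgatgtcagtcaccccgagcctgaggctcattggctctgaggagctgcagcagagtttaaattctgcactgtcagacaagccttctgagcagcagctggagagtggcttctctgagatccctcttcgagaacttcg
Ibsp promoter window: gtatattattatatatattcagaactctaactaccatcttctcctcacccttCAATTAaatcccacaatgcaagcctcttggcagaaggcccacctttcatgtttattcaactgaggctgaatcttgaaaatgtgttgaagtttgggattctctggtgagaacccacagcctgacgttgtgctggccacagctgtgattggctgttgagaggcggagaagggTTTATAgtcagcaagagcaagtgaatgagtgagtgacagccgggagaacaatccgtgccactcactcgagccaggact
Mepe promoter window: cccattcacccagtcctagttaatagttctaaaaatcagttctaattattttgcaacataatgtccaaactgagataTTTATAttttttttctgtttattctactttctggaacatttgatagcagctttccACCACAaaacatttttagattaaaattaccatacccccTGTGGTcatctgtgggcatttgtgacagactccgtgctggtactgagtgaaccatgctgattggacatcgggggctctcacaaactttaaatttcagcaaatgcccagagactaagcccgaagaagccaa

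In the Ibsp window the TATA box stands on the other strand, with its first base 28 bases before the start, and an inverted TATA box is a known feature of bone sialoprotein genes. The same window holds the DLX and MSX core on the other strand 198 bases before the start. The Mepe window holds 2 RUNX cores, 80 bases before the start on the same strand and 118 bases before it on the other. It also has the TATA letters on the other strand 173 bases before the start. The Dmp1 window holds 1 RUNX core on the other strand, 164 bases before the start, and the second Dmp1 window, chr5:104197325-104197624, holds none of the 3 motifs. The marked matches do not overlap. Over the 12 windows of the 8 genes, the RUNX core was found in 4, the DLX and MSX core in 3 and the TATA box in 5. Of all 32817 RefSeq windows of this length, 16.8% hold the RUNX core, 8.0% the DLX and MSX core and 13.6% the TATA box on either strand. The GC content was 47.3% in the Dmp1 window, 46.3% in the Ibsp window and 38.7% in the Mepe window, against a median of 52.7% over all windows.

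Before the genes are compared, 2 properties of the arrays bear on every value. The first is that the arrays labelled brain also read markers of muscle, skin and bone well above the floor. The labels do not say whether tissue other than brain was included, and this was not tested. Nerve and brain markers had medians of 6888 (FoxO6-/-) and 5683 (WT) in brain, against 283 and 511 in jaw. Beside them, skeletal muscle markers had a median of 6540 and 7834 on the brain arrays and 17880 and 19364 on the jaw arrays. Skin and oral epithelium markers had a median of 3179 and 2074 on the brain arrays and 11120 and 7926 on the jaw arrays. Col1a2, a chain of the main bone collagen, read 32367 and 26036 in brain and 41006 and 27736 in jaw. Tooth epithelium was the exception, since the 7 enamel markers with a probe set had a median of 22.4 and 14.6 on the brain arrays, under the floor, and 612 and 233 on the jaw arrays. In bulk tissue, fewer cells of a type and less RNA per cell cannot be told apart.

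The second property is that the FoxO6-/- jaw array stood apart from the rest. The ratio of 3' to 5' signal, which rises as RNA is degraded or copied incompletely, was 3.37 for Actb and 1.95 for Gapdh on this array. The other 3 arrays gave 2.21 to 2.23 for Actb and 1.44 to 1.55 for Gapdh. The paper reports high RNA integrity numbers for its samples, without values for single arrays. The brightest probe set of the FoxO6-/- jaw array read 50639, against 36963 to 40538 on the others, although all 4 arrays share a trimmed mean of 500.0. Of the genes followed here, Ibsp, Sparc and Postn were read nearest to the top of each array, with at least 98.7% of all probe sets dimmer.

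The 4 chromosome 5 genes with a probe set were all brighter in jaw than in brain in both genotypes. Among them, Dspp was the one whose brain signal lay under the floor on both brain arrays. Its signal was 2346 in FoxO6-/- jaw, 1597 in WT jaw, 2.94 in FoxO6-/- brain and 1.98 in WT brain. The brain signals lie under the floor, with 5.99% and 3.95% of all probe sets dimmer than they were. Set against the floor, Dspp was at least 23.3-fold higher in FoxO6-/- jaw than in brain and at least 15.9-fold higher in WT.

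Dmp1 has 3 probe sets. The brightest read 10793 in FoxO6-/- jaw, 8695 in WT jaw, 5224 in FoxO6-/- brain and 4107 in WT brain. The second read 6259, 6083, 3258 and 2487 in the same order of arrays. Both are of a design that may also match other transcripts. The gene-specific probe set read 2259, 2059, 1188 and 712. All 3 gave the same order of the arrays, with the jaw arrays above the brain arrays and FoxO6-/- above WT within each tissue. Unlike Dspp, this gene kept a brain signal of 48.4% of the jaw signal in FoxO6-/- and 47.2% in WT by its brightest probe set.

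Ibsp read 18665 in FoxO6-/- jaw, 15872 in WT jaw, 9445 in FoxO6-/- brain and 10179 in WT brain. Its second probe set read 1647, 1440, 672 and 659. Both were brighter in jaw than in brain in each genotype, as 54.2% of all genes were in FoxO6-/- and 54.4% in WT. The 2 probe sets placed the 2 brain arrays in opposite order. Mepe was read close to the floor, with 214 in FoxO6-/- jaw, 139 in WT jaw, 129 in FoxO6-/- brain and 64.3 in WT brain. Its WT brain signal lies under the floor, and its FoxO6-/- brain signal was close to that of WT jaw.

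Sparc and Postn were bright on every array, in brain as well as in jaw. Sparc read 29880 in FoxO6-/- jaw, 25938 in WT jaw, 25723 in FoxO6-/- brain and 24532 in WT brain, and a second probe set read 12133, 10552, 10439 and 10290. The 3 lower values of each lie close together, with the FoxO6-/- jaw array above them. The last Sparc probe set stayed under the floor on every array, at 30.8 to 83.7. Postn read 30228 in FoxO6-/- jaw, 25562 in WT jaw, 20219 in FoxO6-/- brain and 21504 in WT brain. On each array 99.6% to 99.9% of all probe sets were dimmer than Postn, so both genes were read near the upper end of the signal range.

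The osteoblast regulator Sp7 was read above the floor on all arrays, at 648 in FoxO6-/- jaw, 599 in WT jaw, 518 in FoxO6-/- brain and 383 in WT brain. Alpl read 992 and 1013 in FoxO6-/- and WT jaw and 519 and 392 in FoxO6-/- and WT brain. For Alpl the 2 jaw arrays were nearly equal and the brain arrays lay lower, with WT lowest. Phex read 2461 in FoxO6-/- jaw, 1915 in WT jaw, 1225 in FoxO6-/- brain and 1195 in WT brain. Here the 2 brain arrays were nearly equal and the jaw arrays stood above them. A second Phex probe set stayed under the floor on every array, at 5.54 to 36.2.

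**Figure D1:**
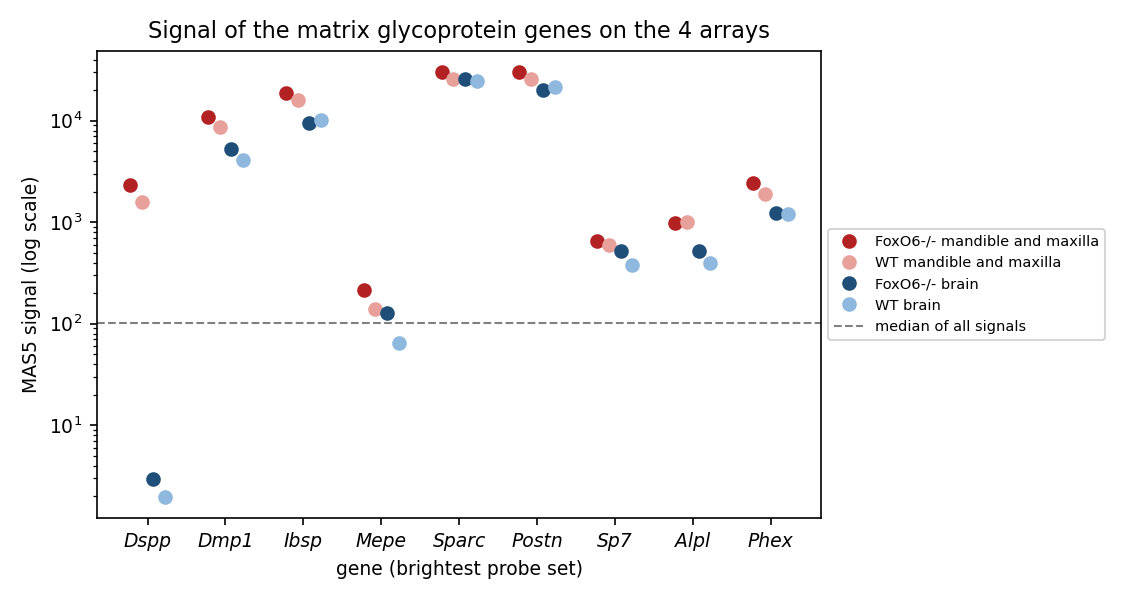
MAS5 signal (log axis) of the brightest probe set of each of the 9 measured genes on the 4 arrays, 1 point per array with no error bar because there is 1 array per group, and a dashed line at the median of all signals (101). Dspp drops from 2346 and 1597 in jaw to 2.94 and 1.98 in brain, whereas every other gene keeps a brain signal within about an order of magnitude of its jaw signal.

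The comparison of jaw with brain asked where the mineralized tissue genes are read, and all 9 genes were brighter in jaw in both genotypes, although Sparc turned to -0.064 on the log2 scale under quantile normalization, in the fit described next. Across all genes 54.2% of 12535 were brighter in jaw in FoxO6-/- and 54.4% of 12573 in WT. The median of the 9 log2 ratios of jaw over brain was 0.93 in FoxO6-/- and 0.68 in WT, against 0.06 and 0.05 over all genes, and 0.93 and 0.65 with signals under the floor raised to it. In FoxO6-/- 3 of the 9 genes, Dspp, Dmp1 and Phex, were at least 2-fold brighter in jaw, where 7.85% of all genes were. In WT 4 of the 9, Dspp, Dmp1, Mepe and Alpl, passed the same limit, where 8.45% of all genes did. Mepe did so by a WT brain signal under the floor, against which it was at least 1.38-fold higher in WT jaw, and 3 of the 9 passed with such signals raised to the floor. Apart from Dspp the ratios were small, from 0.22 for Sparc to 1.05 for Dmp1 in FoxO6-/- and from 0.08 for Sparc to 1.37 for Alpl in WT.

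The test was limma on the log2 signals of the 4 arrays with tissue and genotype as terms, so that the 2 genotypes stand in as the replicates of a tissue. The labels name no further replicates, so its p-values do not measure the spread between animals or samples. The error is how far the tissue difference disagrees between the genotypes, with 1 residual degree of freedom, drawn toward a prior from all genes. A genotype effect that differs between the tissues therefore counts as error. Of the 9 genes, 3 were called higher in jaw at an adjusted p under 0.05 and 0 were called lower. Over the 12569 genes tested 6.48% were called higher and 8.73% lower, and 54.7% had a log2 difference above 0, as all 9 genes did. Dspp was called with its brain signals as deposited (limma adjusted p = 0.00611). It entered the test by its jaw signals alone, since the mean over the 4 arrays had to reach the floor. The call is therefore not independent of that filter. With the brain signals raised to the floor, Dspp differed by 4.27 on the log2 scale (limma adjusted p = 0.00179). Both brain arrays then hold the same set value, so this p-value is no separate evidence. For Dmp1 the difference was 1.06 on the log2 scale (SE 0.146, limma adjusted p = 0.0318), and for Alpl 1.15 (SE 0.188, limma adjusted p = 0.0434). Both calls held under 8 of 14 alternatives. Dmp1 was not called with gene-specific probe sets only (limma adjusted p = 0.0520), and Alpl was not called under median centring (0.0549).

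The other differences did not pass the limit. Mepe differed by 0.92 (limma adjusted p = 0.0591), or by 0.60 with low signals raised to the floor (0.0714), Phex by 0.84 (0.0639) and Ibsp by 0.81 (0.0700). These 3 lie just beyond the limit, and Ibsp passed it under 4 of 14 alternatives, Phex under 5 of 14 and Mepe under 0 of 13. Sp7 differed by 0.49 (limma adjusted p = 0.159), Postn by 0.41 (0.204) and Sparc by 0.15 (0.547). Without the FoxO6-/- jaw array, or without the WT brain array, Dspp alone was called, and with no floor none of the 9 was, by limma.

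**Figure D2:**
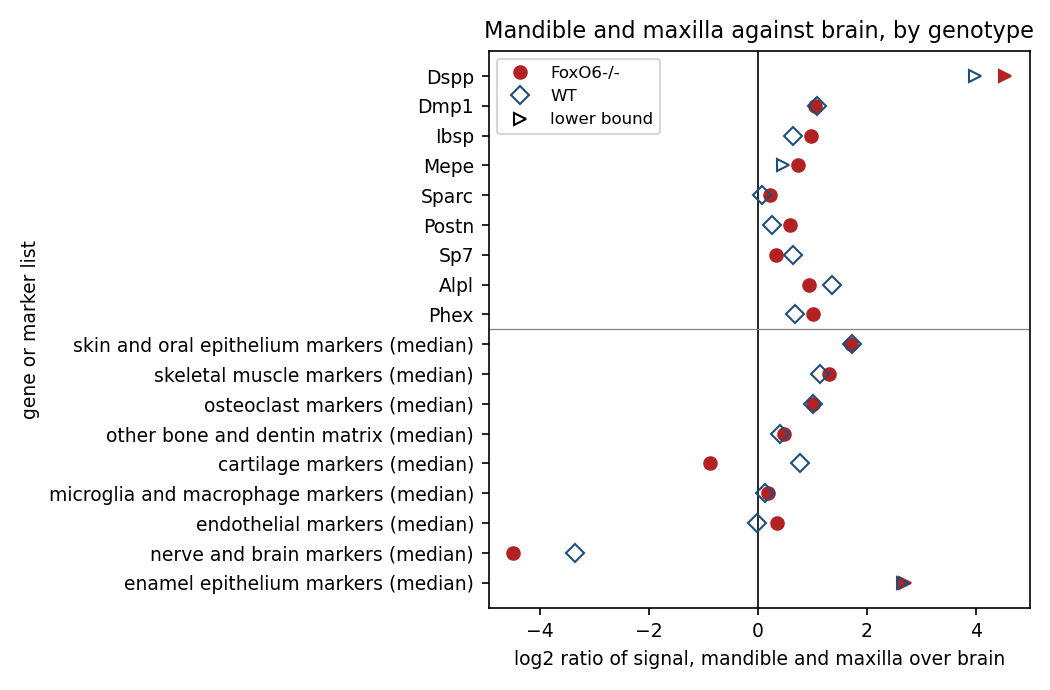
Log2 ratio of jaw over brain signal (horizontal axis) in FoxO6-/- (filled circles) and WT (open diamonds) for the 9 genes and, below the line, as list medians for marker genes of other tissues; each point is 1 array over 1 array, without error. Triangles are lower bounds, set against the floor because brain signals lie under it. They stand at 4.54 and 3.99 for Dspp, 0.46 for Mepe in WT and 2.70 and 2.66 for the enamel markers. The remaining values of the 9 genes lie between 0.08 and 1.37. The osteoclast median, at 1.01 in both genotypes, is drawn as deposited, with 1 marker under the floor in brain in each genotype. With low signals raised to the floor it was 0.93 and 0.84.

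The genes were compared with lists of related genes and of other tissues, to show where they differ from them. Among 19 other bone and dentin matrix genes, 1 was called higher in jaw and 0 lower, and the median log2 ratio of jaw over brain was 0.47 in FoxO6-/- and 0.41 in WT. Integrins and CD44, the receptors of these glycoproteins, had medians of 0.83 and 0.55 over 7 genes. Osteoblast and odontoblast transcription factors had medians of 0.47 and 0.68 over 8 genes (0.47 and 0.60 with low signals raised to the floor), 2 of them called higher, and genes of phosphate and pyrophosphate handling and matrix processing 0.45 and 0.32 over 10 genes, 1 of them called higher. Osteoclast markers had medians of 1.01 in both genotypes (0.93 and 0.84 with low signals raised), with 4 called higher. Skeletal muscle markers, at 1.30 and 1.15, and skin and oral epithelium markers, at 1.71 and 1.73, were as far above brain as Dmp1 or farther, and their part in the ratios of the matrix genes was not tested.

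In jaw the FoxO6-/- array was brighter than the WT array for 8 of the 9 genes, and none differed by 2-fold, with 6 to 9 of the 9 brighter under the other scalings and choices of probe set given below. Over all 12186 genes measured in jaw 48.7% were brighter in FoxO6-/-, and 2.28% differed by 2-fold. The median log2 ratio of FoxO6-/- over WT was 0.24 for the 9 genes and -0.01 for all genes, and 0.15 and 0.02 under quantile normalization. The largest ratios were 0.62 for Mepe (1.54-fold) and 0.55 for Dspp (1.47-fold). The next were 0.36 for Phex (1.28-fold), 0.31 for Dmp1 (1.24-fold), 0.24 for Postn, 0.23 for Ibsp and 0.20 for Sparc. Sp7 was nearly level at 0.11, and Alpl was the exception at -0.03.

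These ratios have no replicate error. The spread between probe sets of 1 gene covers the reading of the arrays and not the spread between animals or samples. Over 4927 genes with at least 2 readable probe sets, the log2 ratios of the 2 brightest differed with an SD of 0.414 in jaw. Mepe and Dspp, which had the largest ratios, have 1 probe set each and so lack this comparison. The 3 Dmp1 probe sets gave 0.31, 0.04 and 0.13, the 2 of Ibsp 0.23 and 0.19, and the 2 readable ones of Sparc both 0.20.

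The direction of the brightest genes depended on the scaling. Under quantile normalization, which gives every array the same distribution of signals, Postn was at -0.20, Sparc at -0.23 and Ibsp at -0.02 on the log2 scale. The count of genes brighter in FoxO6-/- was then 6 of 9, with Alpl at 0.01. Averaging all probe sets of a gene turned Phex from 0.36 to -0.88, where 7 of 9 were brighter. That average takes in a Phex probe set under the floor on every array, at 5.54 in FoxO6-/- jaw and 24.2 in WT jaw. Under median centring all 9 were brighter, with the median of all genes itself moved to 0.125. Dspp, at 0.55 to 0.69, and Mepe, at 0.62 to 0.80, were brighter in FoxO6-/- under every scaling tried.

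**Figure D3:**
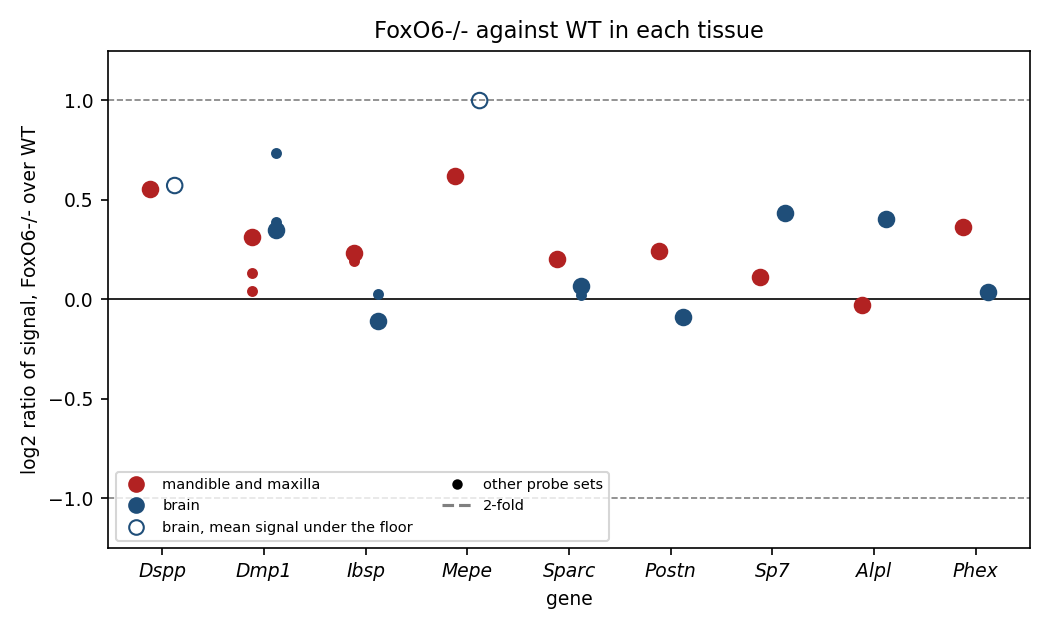
Log2 ratio of FoxO6-/- over WT signal (vertical axis) for the 9 genes in jaw (red) and brain (blue), with large points for the brightest probe set, small points for further readable probe sets and open circles where the mean brain signal lies under the floor; each point is 1 array over 1 array, without error. In jaw 8 of 9 genes lie above 0, 6 of 9 under quantile normalization, and no gene measured in that tissue crosses the dashed lines at 2-fold.

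Other measures moved with genotype in jaw beside the matrix genes. The 12 cartilage markers were all dimmer in FoxO6-/- jaw, with a median of -0.82 on the log2 scale and 5 of them by at least 2-fold, from Matn1 at -2.10 to Cnmd at -0.29. The direction of all 12 was the same under both other scalings. The summed signal of these markers was 36329 in FoxO6-/- jaw and 57044 in WT jaw. The 9 nerve and brain markers had a median of -0.72, with summed signals of 4120 and 6026. Enamel epithelium markers had a median of 0.52, with all 6 brighter in FoxO6-/- and Enam at 1.41 and Amtn at 1.40. Osteoclast markers had a median of 0.48 with 7 of 7 brighter, and skin and oral epithelium markers 0.38 with 7 of 7 brighter. The part of these tissues, and of the higher ratio of 3' to 5' signal on the FoxO6-/- jaw array, in the ratios of the matrix genes was not tested.

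Genes that work with the matrix glycoproteins had list medians between -0.04 and 0.12 in jaw. Of 19 other bone and dentin matrix genes 14 were brighter in FoxO6-/-, with a median of 0.11, but 8 of 19 with a median of -0.04 under quantile normalization. Their ratios ran from -0.23 for Thbs1 and -0.21 for the collagen chaperone Serpinh1 to 0.39 for Col5a2 and 0.56 for Col1a2. Col1a1, the other chain of the collagen that holds Col1a2, was at -0.08 in jaw and -0.27 in brain. Of 10 genes of phosphate and pyrophosphate handling and matrix processing 7 were brighter, with a median of 0.12. Their extremes were Fam20a at -0.30 and the parathyroid hormone receptor Pth1r at 0.42. Of the 8 osteoblast and odontoblast transcription factors 3 were brighter, with a median of -0.04 that turned to 0.11 under median centring. The homeobox genes Dlx6 and Dlx5 were the lowest of them at -0.84 and -0.54. Dlx6 read 75.8 in FoxO6-/- jaw, under the floor, and 136 in WT jaw. The receptors had a median of 0.11 with 6 of 7 brighter, and Itgav, a subunit of the receptor that binds the integrin motif of these proteins, was at 0.31. Osteocyte and osteoclast-regulating genes had a median of -0.00 over 6 genes, 3 of them brighter in FoxO6-/-. The lowest were Csf1 at -0.41 and the decoy receptor Tnfrsf11b at -0.37. The highest were Dkk1 at 0.43 and the osteoclast ligand Tnfsf11 at 0.60.

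In brain 7 of the genes had a mean signal at or above the floor, without Dspp and Mepe. Of the 7, 5 were brighter in FoxO6-/- and none differed by 2-fold, where 57.3% of 12327 genes were brighter and 3.16% differed by 2-fold. Sp7 was at 0.43 on the log2 scale, Alpl at 0.40 and Dmp1 at 0.35, whereas Sparc, Phex, Postn and Ibsp lay between -0.11 and 0.07. The median was 0.07 for the 7 genes and 0.05 for all genes. It moved to 0.18 against 0.06 under quantile normalization, 0.35 against 0.20 under median centring, 0.35 against 0.06 with no floor and 0.30 against 0.02 with averaged probe sets. The gene-specific probe set of Dmp1 gave 0.74, and its other probe sets gave 0.35 and 0.39. The SD between probe sets of 1 gene was 0.390 in brain. Scaling changed the smallest values, since Ibsp and Postn were at 0.04 and 0.05 under median centring and Sparc at -0.08 under quantile normalization.

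Cartilage markers moved the other way in brain, with all 12 brighter in FoxO6-/- and a median of 0.87, and nerve markers had a median of 0.39 with 9 of 9 brighter. The osteoblast and odontoblast transcription factors had a median of 0.37 with 6 of 7 brighter. Endothelial markers had a median of -0.25 in brain and 0.20 in jaw, and meninges and fibroblast markers 0.28 and 0.04, the last at -0.02 under quantile normalization. Skeletal muscle markers were at -0.22 in brain and 0.01 in jaw (-0.25 under quantile normalization), microglia and macrophage markers at 0.02 and 0.03. Osteoclast markers were at 0.19 in brain and skin markers at 0.41. Mmp13, the 1 hypertrophic cartilage marker measured in jaw, was at 0.33 there and 0.65 in brain. Their part in the ratios of the matrix genes was not tested.

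**Figure D4:**
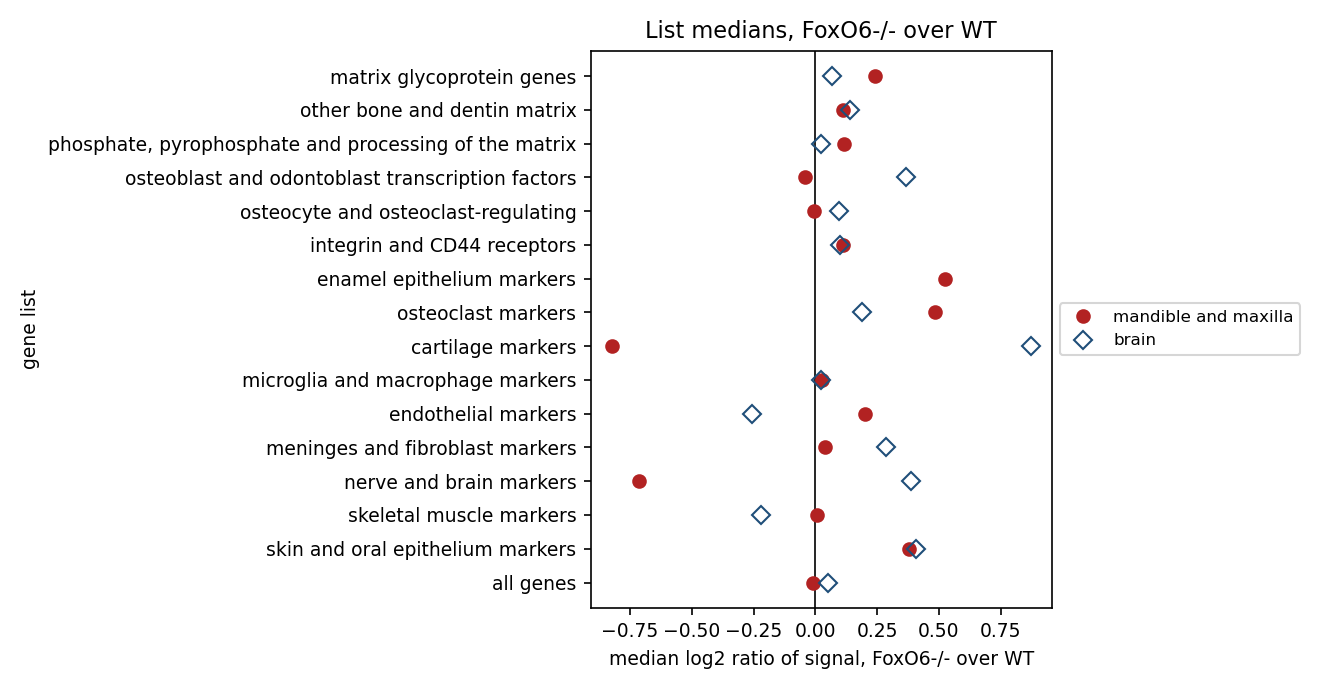
Median log2 ratio of FoxO6-/- over WT signal (horizontal axis) in jaw (filled circles) and brain (open diamonds). Shown are the matrix glycoprotein genes (9 in jaw, 7 in brain without Dspp and Mepe), lists of related and other tissue markers, and all genes. No enamel marker was measured in brain, and each ratio is 1 array over 1 array. The matrix glycoprotein genes lie at 0.24 in jaw and 0.07 in brain. Under quantile normalization they were at 0.15 in jaw and, over 8 genes, at 0.18 in brain. Cartilage markers lie at -0.82 in jaw and 0.87 in brain. The other bone and dentin matrix lies at 0.11 and 0.14 (-0.04 in jaw under quantile normalization).

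Across both tissues, limma with genotype and tissue as terms called 0 of 12569 genes at an adjusted p under 0.05, and 588 had an unadjusted p under 0.05. Among them were 2 of the 9 genes. Mepe differed by 0.81 on the log2 scale (SE 0.178, unadjusted p = 0.0151, limma adjusted p = 0.902) and was brighter in FoxO6-/- in both tissues. Dspp differed by 0.56 (SE 0.146, unadjusted p = 0.0245, limma adjusted p = 0.902). For Dspp the brain signals that enter this value are 2.94 and 1.98, and for Mepe 129 and 64.3, so both lean on signals at or under the floor. With signals under the floor raised to it, Dspp was at 0.28 and Mepe at 0.49. The other 7 genes lay between 0.06 for Ibsp and 0.33 for Dmp1, with limma adjusted p from 0.902 to 0.956.

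None of the tested genes next to the chromosome 5 cluster was called between the tissues. Of all genes tested 6.48% were called higher in jaw and 8.73% lower, so so few neighbours without a call are not set apart from other genes. Within the cluster 2 of the 4 measured genes were called. In the RefSeq order of GRCm38.p6, Sparcl1 lies directly before Dspp. Sparcl1 encodes a relative of SPARC and read 5954 in FoxO6-/- jaw, 5783 in WT jaw, 6872 in FoxO6-/- brain and 6930 in WT brain, with limma -0.23 for jaw against brain (adjusted p = 0.349). Hsd17b11 and Nudt9 differed by -0.05 and 0.03 between the tissues (limma adjusted p = 0.860 and 0.918). Hsd17b13 was under the floor on every array. On the other side of the cluster, Thoc2l differed by 0.37 and Zfp33b by -0.01 (limma adjusted p = 0.294 and 0.969).

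Likeness of pattern was measured as the Euclidean distance between the 4 log2 signals, centred on their mean and with signals under the floor raised to it, over 4 arrays and 12185 other genes. The genes nearest to Dspp were Gm10229 (distance 0.163), Spink5 (0.294) and Krtap22-2 (0.306), all bright in jaw and at or under the floor or close to it in brain. Spink5 encodes a protease inhibitor of stratified epithelium and read 2443 and 1428 in FoxO6-/- and WT jaw and 120 and 78.3 in FoxO6-/- and WT brain. Nearest to Ibsp were Agtr2 (0.0355), Fxr1 (0.0362) and Nupr1 (0.0418). Agtr2, an angiotensin receptor, read 9887, 8130, 4879 and 5282 on the arrays in the order used for Ibsp. Nearest to Sp7 were the adhesion molecule Icam1 (0.0327), Vill (0.0527) and the bone morphogenetic protein Bmp5 (0.0771). A pattern of 4 arrays is shared by many genes, so these names describe only the shape of the signal.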

How the data were processed

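The authors deposited MAS5 signals, a linear intensity per probe set, from Affymetrix GeneChip mouse genome arrays. All 4 arrays have a trimmed mean of 500.0 (2% trimmed from each tail) and were not scaled further here. The sources used here do not state a MAS5 version. Groups were taken from the sample labels. Probe sets were named from the platform annotation, by which 34945 of 45101 probe sets have 1 gene, and 34741 of these matched the RefSeq gene table of GRCm38.p6 by Entrez ID. The brightest probe set by mean signal stood for each gene, which was compared where the mean over the arrays concerned reached the median of all signals (101). Log2 ratios compare 1 array with 1 array and have no test. The test of tissue and of genotype was limma on log2 signals with both as terms and 1 residual degree of freedom (prior 2.40), adjusted by Benjamini-Hochberg over all 12569 genes. With 4 arrays, their number limits the precision.

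The 10 genes, the 15 other gene lists and the tests were chosen with earlier results of these data known. Named genes were all members, at most 4 genes of each other list (the 2 highest and 2 lowest ratios in jaw), the 5 neighbours on each side of the cluster and the 3 nearest patterns of Dspp, Ibsp and Sp7. Alternatives were quantile normalization, median centring, 2 other floors, low signals raised to the floor, other choices of probe set, other limma terms or prior, and leaving out each array. The limma step was tested on simulated data. Software was R 4.3.3, limma 3.58.1, matplotlib 3.10.9, scipy 1.17.1, pandas 2.3.3, numpy 2.4.6 and Python 3.11.15.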

Additional observations from a re-analysis of the deposited data

Results flagged for a closer look

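For 3 of the genes, and for 2 marker lists whose members all ran 1 way in each tissue, the ratio of FoxO6-/- over WT ran in opposite directions in jaw and brain, with 1 array per group, and the difference was not tested. On the log2 scale the ratio in jaw minus that in brain was 0.34 for Ibsp (0.23 in jaw, -0.11 in brain), 0.33 for Postn (0.24 and -0.09) and -0.43 for Alpl (-0.03 and 0.40). None of these 3 genes had opposite directions under the other scalings. Under quantile normalization Ibsp was at -0.018 in jaw and -0.085 in brain, Postn at -0.20 and -0.22, and Alpl at 0.0069 and 0.43, and under median centring all 6 values were above 0. For the median of the cartilage markers the difference was -1.70 (-0.82 in jaw and 0.87 in brain), and for that of the nerve and brain markers -1.10 (-0.72 and 0.39).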

How the results depend on the processing

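In all 501 alternatives were computed. Of the values that were tested or counted, 158 of 196 for jaw against brain and 135 of 139 for genotype over both tissues kept their direction and their side of the limit, or their count within 1.5 times. For genotype within a tissue, where nothing was tested, 88 of 91 values in jaw and 72 of 75 in brain moved by less than the SD between probe sets or kept their count within 1.5 times, which includes small values that turned. The count of genes called higher in jaw was 814, and it was 0 with no floor, 1238 with low signals raised to the floor, 537 when probe sets were averaged and 1340 with a prior that follows a trend. The count called lower was 1097, and it was 0 with no floor and 588 when probe sets were averaged. With no floor, limma on 18193 genes gave unadjusted p under 0.05 for 1839 genes higher and 1985 lower. Of the matrix genes 3 were called higher, and 0 were with no floor, 1 when probe sets were averaged, and 5 with the floor at the 75th percentile, with low signals raised to the floor, with the trend or with no genotype term. Leaving out each array in turn, which also leaves out the genotype term, gave 1 to 3 matrix genes, 635 to 713 genes higher and 853 to 1299 lower, and it was 1 matrix gene (Dspp) without the FoxO6-/- jaw array or without the WT brain array. Over these alternatives the limma adjusted p ranged from 0.000486 to 0.118 for Dspp, from 0.00505 to 0.159 for Dmp1 and from 0.0135 to 0.183 for Alpl. In brain the count of matrix genes brighter in FoxO6-/- was 5 of 7, and it was 8 of 8 under median centring, which moved the median of all genes from 0.05 to 0.20, and 3 of 5 with the floor at the 75th percentile.

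Directions turned in these cases. Under quantile normalization the jaw against brain difference of Sparc was -0.064, and the genotype difference over both tissues was -0.051 for Ibsp, -0.21 for Postn and -0.15 for Sparc. Averaging the probe sets of a gene, which brings in a Phex probe set under the floor, put Phex at -0.26 for jaw against brain, -0.29 for genotype over both tissues and -0.88 for genotype in jaw. The 2 Phex probe sets that were averaged gave 0.36 and -2.13 for genotype in jaw, the second from signals under the floor on every array. For genotype in jaw, Ibsp turned to -0.018, Postn to -0.20 and Sparc to -0.23 under quantile normalization, and Alpl to 0.0069 there and to 0.10 under median centring. In brain Ibsp turned to 0.035 and Postn to 0.054 under median centring, and Sparc to -0.077 under quantile normalization. The labels carry no replicate numbers, and the genotype term is what sets each jaw array beside the brain array of its genotype. The last 2 alternatives were chosen after seeing the data. Without Dspp the median jaw against brain difference of the genes was 0.83, against 0.84 with it, and without Dspp and Mepe the median ratio of FoxO6-/- over WT in jaw was 0.23, against 0.24. Signals near 101 and below were not taken as readings, which leaves Dspp unmeasured in brain and Mepe at the edge. Their signals under the floor still entered limma as deposited, because the floor was set on the mean over the arrays.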
